A study of Arabidopsis thaliana with 10 samples.

Results

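Active KLU was compared with a mutant form of the protein after 90 min of induction in inflorescences of Arabidopsis thaliana. The comparison uses 4 of the 10 Affymetrix ATH1 arrays, chosen by their titles, and covers all 22746 probe sets that are not array controls. The 2 arrays with wild-type KLU came from plants with the construct 35S::AlcR-AlcA::KLU, lines 3-1 and 4-3. The 2 arrays with mutant KLU came from plants with 35S::AlcR-AlcA::KLUmut, lines 1-5 and 3-2. All plants, whichever construct they carried, were klu-2 mutants, and the plants on these 4 arrays stood in ethanol vapour for 90 min. The other 6 arrays, 2 a group, serve to describe the result: both constructs after 240 min of vapour and the wild-type construct at 0 min, which is called uninduced here. Each array measured pooled inflorescence tissue with young buds, so the plants behind a value are not separate replicates. The 2 arrays of a group differ in the transformed line. Construct and line cannot be told apart, since no line carries both constructs and no uninduced array of a mutant line was analysed here.

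KLU, also called CYP78A5, is a cytochrome P450 of plants that promotes the growth of leaves and floral organs, and loss-of-function klu plants have smaller organs. It is known for acting beyond the cells that express it, and the product of its reaction that would act on growth is not established. In the ethanol switch the 35S promoter, active in most plant tissues, drives the regulator AlcR, and AlcR turns on the AlcA promoter in front of KLU once ethanol is present. The comparison asks what active KLU changes when vapour and elapsed time are equal. No probe set carries the name KLU in the annotation used, so the level of the transgene was not analysed here, and an unequal level between the constructs was not tested.

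The median log2 level of an array was 5.93 to 6.05. The 7 nuclear photosystem genes measured, markers of green tissue, ranged from 9.05 to 12.65. Of the floral and meristem markers listed, CLV3 and UFO were the 2 measured by name, and both lay between 3.24 and 3.87, below the median of all probe sets, which was 6.02. The 2 tapetum and anther markers, AMS and SPL, lay between 4.11 and 6.76. The 9 pollen markers averaged 6.48 (line 3-1) and 5.39 (line 4-3) with wild-type KLU at 90 min, and 5.41 (line 1-5) and 5.78 (line 3-2) with mutant KLU. The 2 wild-type lines thus stood further apart in pollen markers than the 2 mutant lines. Lines differed widely: 1524 probe sets (6.7%) were at least 2-fold apart between the 2 wild-type arrays at 90 min, and 709 (3.12%) between the 2 mutant arrays. In such pooled tissue, fewer cells of a type and less RNA per cell cannot be told apart. With 2 arrays a group, the array number limits precision throughout.

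Most of the large differences at 90 min were higher levels with wild-type KLU. At least 2-fold apart, with arrays that did not overlap between the groups, were 356 probe sets, 1.57% of those measured. Of these, 315 (1.38%) were higher and 41 (0.18%) were lower with wild-type KLU. The median log2 difference was 1.51 among the 315 and -1.12 among the 41. The 76 probe sets that differed by 2 log2 units or more were all among the 315, and so were the 15 that differed by 3 or more. Over all probe sets, large and small differences together, 47.1% had a higher and 51.7% a lower mean with wild-type KLU, with a median difference of -0.01. Arrays that did not overlap, at any size, were found for 27.7% of probe sets, 13.5% higher and 14.3% lower. The split also depended on the arrays: without the wild-type array of line 3-1, 384 probe sets were higher and 417 lower, and without the mutant array of line 3-2, 448 were higher and 270 lower. At a limit of 1.5-fold, 629 were higher and 367 lower.

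**Figure D1:**
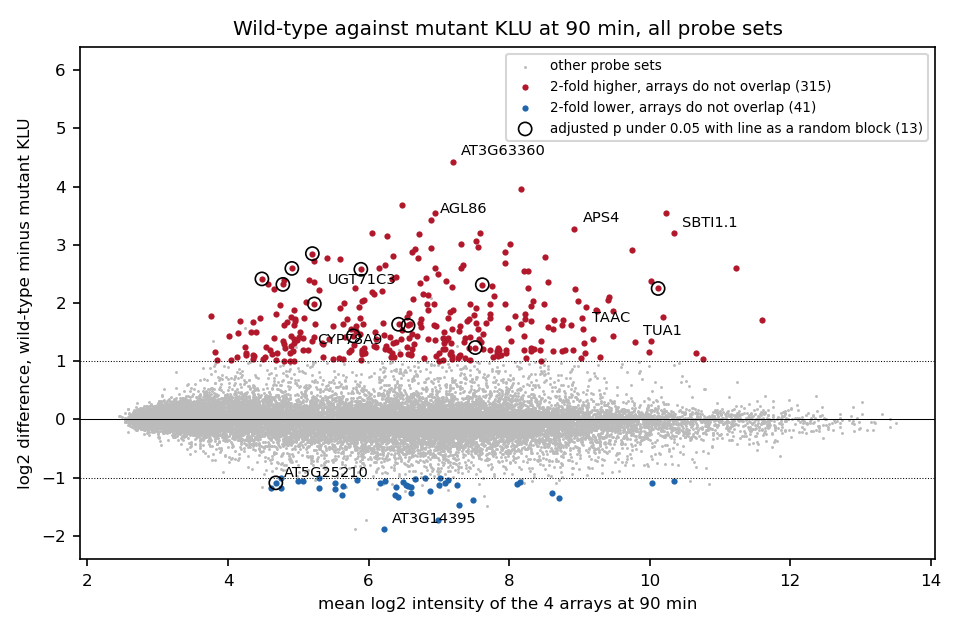
Each point is a probe set, with its mean log2 intensity over the 4 arrays at 90 min on the x axis and its log2 difference, wild-type minus mutant KLU, on the y axis. The 315 red points at the top reach 4.43 log2 units, the 41 blue points reach -1.88, and circles mark the 13 probe sets with an adjusted p under 0.05 when the line is a random block.

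In limma's moderated test with Benjamini-Hochberg adjustment over all probe sets, 1 probe set passed the threshold of 0.05 (0.0044% of those tested). It was 248692_s_at, which the gene table leaves unnamed. Its log2 level was 5.69 on both wild-type KLU arrays, against 3.19 and 3.36 on the mutant KLU arrays of lines 1-5 and 3-2. The wild-type arrays lay well above both mutant arrays, and the uninduced arrays, at 2.96 and 3.08, lay below them. The probe set was 2.42 log2 units higher with wild-type than with mutant KLU (SE 0.176, adjusted p = 0.0284). It no longer passed in the fit of the 4 arrays alone, after quantile normalization, or without the mutant array of line 1-5, either wild-type array at 90 or 240 min, or either uninduced array. At an unadjusted p under 0.05 there were 796 higher probe sets (3.5%) and 538 lower ones (2.37%).

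With the line as a random block, limma called 13 probe sets (0.0572%). Of these, 12 were higher (0.0528%) and 1 was lower (0.0044%) with wild-type than with mutant KLU. No line carries both constructs, and lines recur across times. The fits with and without the block thus take part of their spread from repeated arrays of the same lines. In limma's fit of the 4 arrays at 90 min alone, 0 probe sets passed, and the smallest adjusted p was 0.593. Of the 13 called with the block, AT3G12440 and AT2G17850 had the largest differences of those with a gene name. AT3G12440 stood at 6.15 and 7.10 with wild-type KLU and at 3.70 and 3.85 with mutant KLU (log2 difference 2.85, SE 0.311, adjusted p = 0.0601 without and 0.0412 with the block). AT2G17850 stood at 5.71 and 6.70 with wild-type KLU and at 3.65 and 3.57 with mutant KLU (log2 difference 2.60, SE 0.313, adjusted p = 0.0657 without and 0.0440 with the block). Neither gene's groups overlapped. The other named genes called higher with the block were AT3G55840 (2.32), AT5G61560 (1.64), AT1G20030 (1.61) and AT3G57220 (1.24). Besides 248692_s_at, the unnamed probe sets called higher were 245113_at (2.58), 262867_at (2.31), 247982_at (2.25), 267418_at (1.99) and 262041_at (1.44). The probe set called lower names AT5G25210. Its level was 4.10 and 4.17 with wild-type KLU, against 5.27 and 5.18 with mutant KLU (log2 difference -1.09, SE 0.119, adjusted p = 0.0601 without and 0.0440 with the block). Both mutant arrays were above both wild-type arrays. The uninduced arrays of AT5G25210, at 3.72 and 3.86, lay below all 4 arrays at 90 min and nearer to the wild-type ones. For the 12 probe sets called higher, the uninduced arrays were nearer to the mutant ones.

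Genes with a known role were named by symbol after their values were seen, and each value below is a log2 level on 1 array or a difference of log2 levels. Of these, CYP78A9, TUA1, TAAC, QKY and IYO were higher with wild-type KLU. None of these genes passed the threshold of 0.05 with or without the line block. CYP78A9, the only family relative of KLU measured by name and itself known for promoting growth of fruits, stood at 5.78 and 5.70 with wild-type KLU, against 4.66 and 4.44 with mutant KLU. The groups did not overlap, and the uninduced arrays, at 4.75 and 4.58, were close to the mutant ones. The difference was 1.19 (SE 0.153, adjusted p = 0.072 without and 0.0554 with the block). At 240 min it was 0.61 (adjusted p = 0.126). Whether the CYP78A9 probe set also detects KLU transcript was not tested.

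TUA1 encodes an alpha-tubulin of microtubules that is known from pollen. Its level was 10.49 and 10.42 with wild-type KLU, against 8.89 and 9.35 with mutant KLU, a difference of 1.33 (SE 0.172, adjusted p = 0.072). Both wild-type lines were about equally high. The pollen markers other than TUA1 and AGL30, which were left out after their values were seen, averaged 5.82 and 4.45 on the wild-type arrays. On the mutant arrays they averaged 4.92 and 5.25, and these averages overlapped between the groups. With the mean of the 9 pollen markers as a covariate in limma, TUA1 had an adjusted p of 0.0374. That mean includes TUA1 itself. Whether pollen content causes the TUA1 difference was not tested. AGL30, a MADS-box factor gene active in pollen, stood at 7.08 and 6.93 with wild-type KLU, against 5.39 and 5.98 with mutant KLU (1.32, SE 0.260, adjusted p = 0.139). Both lines of wild-type KLU were above both lines of mutant KLU. Over their lists, the 9 pollen genes had a median difference of 0.19 and the 7 tubulin genes one of -0.05.

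TAAC, the ADP/ATP carrier of the chloroplast's thylakoid membrane, stood at 9.87 and 9.80 with wild-type KLU, against 8.00 and 8.55 with mutant KLU (1.56, SE 0.217, adjusted p = 0.0813). QKY (QUIRKY), a membrane protein that shapes floral organs through signalling between cells, stood at 8.92 and 8.93 with wild-type KLU, against 7.07 and 7.90 with mutant KLU (1.44, SE 0.248, adjusted p = 0.102). IYO (MINIYO), a partner of RNA polymerase II that promotes the onset of cell differentiation, stood at 7.59 and 8.06 with wild-type KLU, against 5.47 and 6.22 with mutant KLU (1.98, SE 0.376, adjusted p = 0.124). In all 3 genes the mutant array of line 3-2 was nearer to the wild-type arrays than that of line 1-5. The uninduced arrays were at 8.00 and 8.12 for TAAC, 7.76 and 7.91 for QKY, and 5.67 and 5.76 for IYO, below the wild-type arrays at 90 min in each case. CCMH, which is needed to mature cytochrome c in mitochondria, differed by 1.29 (adjusted p = 0.124). THO1, a subunit of the THO complex that couples transcription to mRNA export, differed by 0.88 (adjusted p = 0.0825), while the 5 THO genes measured had a median difference of 0.09.

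**Figure D2:**
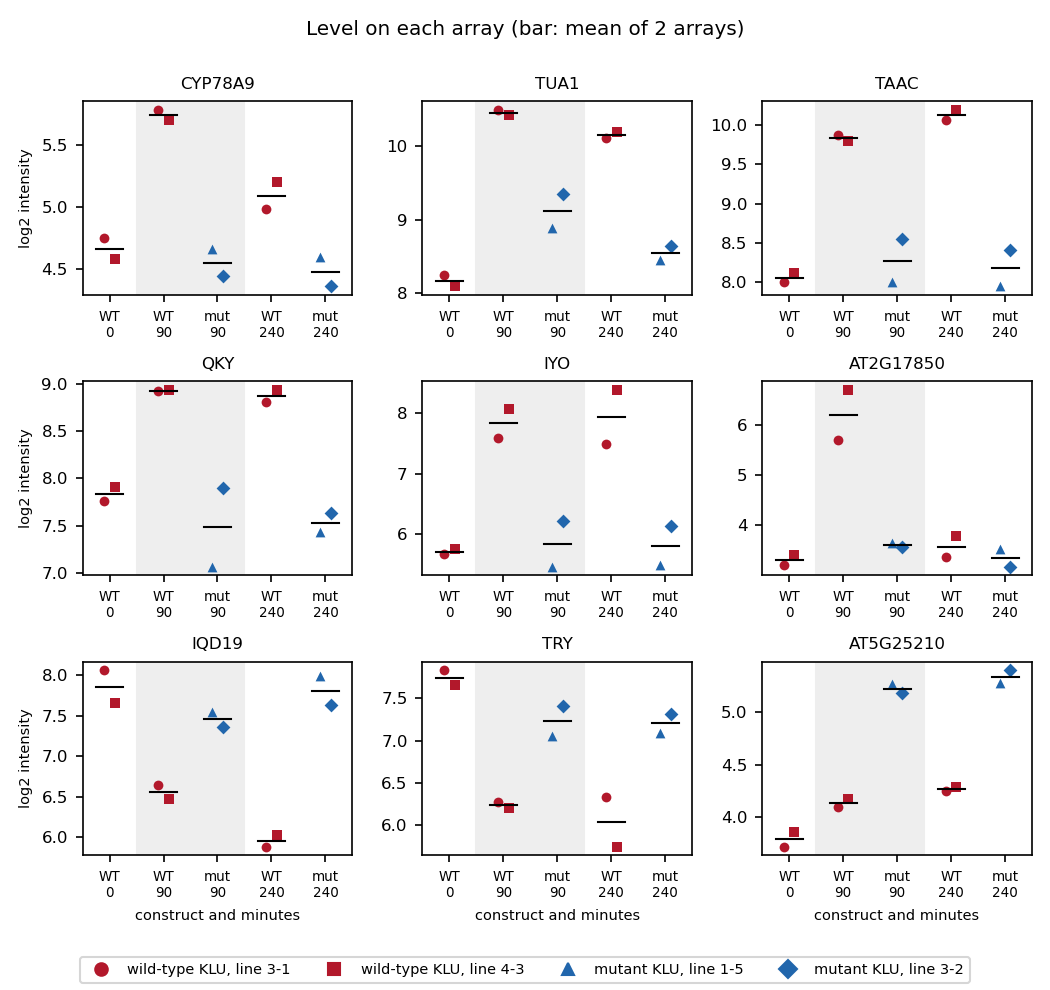
Log2 intensity on each of the 10 arrays for 9 genes, by construct (WT, wild-type KLU in red; mut, mutant KLU in blue) and minutes of vapour; symbols mark the lines, bars the mean of 2 arrays, and the 90 min arrays are shaded. For CYP78A9, TUA1, TAAC, QKY, IYO and AT2G17850 both wild-type arrays at 90 min lie above both mutant arrays, and for IQD19, TRY and AT5G25210 below them.

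On the lower side the symbol-named genes differed less. IQD19, from the IQ67-domain family that binds calmodulin, stood at 6.64 and 6.47 with wild-type KLU, against 7.55 and 7.36 with mutant KLU (-0.90, SE 0.189, adjusted p = 0.171). Its relative iqd21 stood at 6.06 and 6.39 with wild-type KLU, against 7.01 on both arrays with mutant KLU (-0.79, adjusted p = 0.287). Neither pair of groups overlapped, and for both genes the difference was larger at 240 min, with -1.86 and -1.55. Over the family, chosen after these values were seen, 10 of 15 measured IQD genes were lower and 5 higher, with a median of -0.12. TRY (TRIPTYCHON), a small MYB protein that keeps cells from forming trichomes, stood at 6.28 and 6.21 with wild-type KLU, against 7.06 and 7.41 with mutant KLU (-0.99, SE 0.218, adjusted p = 0.195). The uninduced levels of TRY, 7.83 and 7.66, were above all 4 arrays at 90 min. In the family of TON1 RECRUITING MOTIF genes, known for microtubule order and the plane of cell division, TRM24 and TRM28 were lower by -0.81 and -0.90, whereas TRM31 was higher by 1.14. Of the 14 TRM genes measured, 9 were lower and 5 higher, with a median of -0.11, and none passed the threshold.

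The 14 named genes with the smallest p on the higher side differed by 1.14 to 2.85 log2 units, with adjusted p between 0.0601 and 0.072. They include, besides those given above, AT1G12130 (2.40), AT1G31335 (2.04), AT5G61550 (1.89), AT2G34990 (1.41), AT4G30030 (1.19) and AT3G01570 (1.14). The uninduced arrays were nearer to the mutant than to the wild-type arrays in 14 of these 14 genes. On the lower side the 14 differed by 0.72 to 1.88 in size, with adjusted p between 0.0601 and 0.143, and the uninduced arrays were nearer to the mutant arrays in 10. Among these 14 were AT3G14395 (-1.88), AT4G37080 (-1.12), AT5G19340 (-1.07), AT4G01460 (-1.05), AT2G22960 (-0.92) and AT1G75710 (-0.86).

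In several of the genes with the largest differences, chosen after their values were seen, the 2 mutant lines stood far apart. AT3G63360 stood at 9.90 and 8.92 with wild-type KLU, against 3.33 and 6.63 with mutant KLU (4.43, SE 1.05, adjusted p = 0.240). AGL86, a MADS-box gene, stood at 8.95 and 8.27 with wild-type KLU, against 2.95 and 7.40 with mutant KLU (3.44, SE 1.43, adjusted p = 0.816). SBTI1.1, a subtilisin-like protease, stood at 12.06 and 11.83 with wild-type KLU, against 7.15 and 10.33 with mutant KLU (3.21, SE 0.985, adjusted p = 0.480). In each the mutant array of line 3-2 lay between that of line 1-5 and the wild-type arrays. APS4, an ATP sulfurylase of sulfate assimilation, showed the same order, with 11.03 and 10.11 under wild-type KLU against 5.84 and 8.74 under mutant KLU, and its uninduced arrays also differed, at 7.44 and 5.63. AT1G29180, with 8.75 and 8.68 under wild-type KLU and 4.24 and 6.09 under mutant KLU, had a difference of 3.55 (adjusted p = 0.0934). Line 3-2 was nearer to the wild-type arrays than line 1-5 in 282 of the 315 higher probe sets, and in 22 of the 41 lower ones. The same arrays chose these probe sets, and no share over all probe sets is given, so the counts are a description only.

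The levels before induction serve only to describe the 2-fold set. The uninduced arrays were nearer to the mutant than to the wild-type arrays in 305 of the 315 higher probe sets (96.8%) and in 30 of the 41 lower ones (73.2%). The uninduced arrays did not choose the set, but the wild-type and mutant values they are set against did. No share over all probe sets is given beside these counts, so they are a description only. Uninduced and wild-type arrays come from the same lines, and uninduced and mutant arrays do not. The median of the 315 higher probe sets on each array was 7.56 and 7.75 with wild-type KLU at 90 min, against 5.46 and 6.22 with mutant KLU. The uninduced arrays had medians of 5.63 and 5.51. The median of the 41 lower probe sets was 5.85 and 5.98 with wild-type KLU, against 7.14 on both mutant arrays, and 7.07 and 7.02 on the uninduced arrays. Against uninduced plants, 369 probe sets (1.62%) passed in limma with wild-type KLU and 9 (0.0396%) with mutant KLU, and both comparisons share the uninduced arrays. These counts depended on single arrays and were not tested against each other. The count of 369 became 4 or 6 when uninduced line 3-1 or 4-3 was left out, 57 or 23 when the same line at 90 min was, and 221 to 266 when any other array was. The count of 9 became 0 to 5 with 1 array left out, and it was 0 when either mutant array at 90 min was left out. With the line block the counts were 756 and 8.

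**Figure D3:**
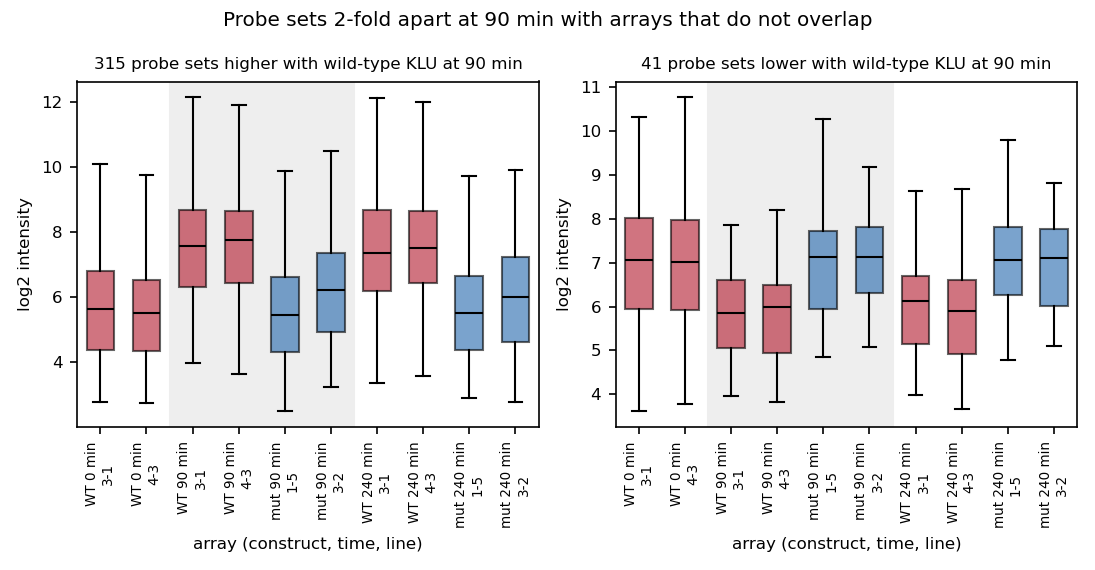
Boxes give the quartiles of log2 intensity on each array over the 315 probe sets higher (left) and the 41 lower (right) with wild-type KLU at 90 min; red boxes are wild-type and blue boxes mutant KLU, whiskers reach the last value within 1.5 box lengths, and the arrays that chose the set are shaded. The uninduced boxes lie near the mutant ones, with medians of 5.63 and 5.51 on the left and 7.07 and 7.02 on the right.

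Most of the 2-fold differences were also present at 240 min, on arrays that did not choose the set but came from the same 4 lines. At 240 min, 314 of the 315 and 40 of the 41 lay on the same side, and 234 and 28 were again at least 2-fold apart. These counts stand without a share over all probe sets, and construct and line go together at both times. The median difference of the set at 240 min was 1.56 on the higher and -1.21 on the lower side. The set formed in the same way at 240 min was more even, with 394 probe sets higher (1.73%) and 371 lower (1.63%). The 232 probe sets higher at both times were 73.7% of the higher set at 90 min and 58.9% of that at 240 min. The 27 lower at both times were 65.9% of the lower set at 90 min but 7.28% of that at 240 min. CSLA01, a glucomannan synthase gene of the cell wall chosen after its values were seen, had a larger difference at 240 min. It stood at 7.32 and 7.60 with wild-type KLU, against 7.91 and 8.19 with mutant KLU at 90 min (-0.59), and differed by -2.60 at 240 min. Tested in limma, the difference between the times passed for 0 probe sets (0.0%). Its unadjusted p lay below 0.05 for 603, or 1057 with the line block, so no gene is shown to differ between the times.

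With that reservation, 29 of the 315 higher probe sets were less than 0.5 log2 units apart at 240 min. AT2G17850 was the largest named gene among them. Its 240 min levels were 3.37 and 3.78 with wild-type KLU, against 3.53 and 3.18 with mutant KLU, a difference of 0.22, where the 90 min difference was 2.60 (unadjusted p of the difference between times 0.000802, adjusted p = 1 in limma). TRM31 stood at 4.70 and 4.94 with wild-type KLU, against 3.62 and 3.74 with mutant KLU at 90 min, and differed by 0.12 at 240 min (unadjusted p of the difference between times 0.00363, adjusted p = 1). AT5G19730 differed by 1.99 at 90 min and 0.46 at 240 min. MYBC1, a MYB-type factor gene, differed by 1.21 and 0.41, and the RING-finger gene ATL5 by 1.16 and 0.40, at 90 and 240 min.

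Some of the genes in the 2-fold set lie next to each other. The named 2-fold set covers 190 loci, and 28 of them lie in 13 runs of genes that are adjacent in the RefSeq annotation. Of 5878 adjacent pairs measured, 15 had both genes in the set, all 15 with both genes higher, and 162 had 1 member in it. The longest runs held 3 genes. In the run of UDP-glycosyltransferases, enzymes that attach sugars to small molecules, UGT71C3 stood at 6.11 and 6.70 with wild-type KLU, against 3.90 and 4.47 with mutant KLU (2.22, SE 0.304, adjusted p = 0.0788). UGT71C4 stood at 8.87 and 9.22 with wild-type KLU, against 7.51 and 8.18 with mutant KLU (1.20, adjusted p = 0.181), and UGT71C5 at 6.59 and 7.48 with wild-type KLU, against 5.19 and 5.58 with mutant KLU (1.65, adjusted p = 0.366). Wild-type line 4-3 was the higher wild-type array for all 3. The 47 UDP-glycosyltransferase genes as a whole had a median of -0.02, with 22 higher, 25 lower and 5 in the 2-fold set, beside 1.57% of all probe sets. These 5 are the 3 genes of this run and the adjacent pair UGT85A2 and UGT85A5.

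The other run of 3 was AT3G12440, AT3G12460 and AT3G12470. AT3G12460 stood at 7.23 and 8.09 with wild-type KLU, against 5.15 and 6.03 with mutant KLU, and AT3G12470 at 7.99 and 8.14 with wild-type KLU, against 6.63 and 6.71 with mutant KLU. All 3 were higher again at 240 min, by 3.61, 2.23 and 2.03. Pairs included GH9B17 and GH9B18 (1.34 and 1.11), glycosyl hydrolases of the family that cuts cell wall glucans, UGT85A2 and UGT85A5 (1.33 and 1.12), and AT5G61550 and AT5G61560 (1.89 and 1.64). Whether probe sets of similar neighbours detect each other's transcript was not tested. By chromosome, 0.749% of the measured loci on chromosome 2 were in the set, and 1.36% to 1.87% of those on the other nuclear chromosomes.

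**Figure D4:**
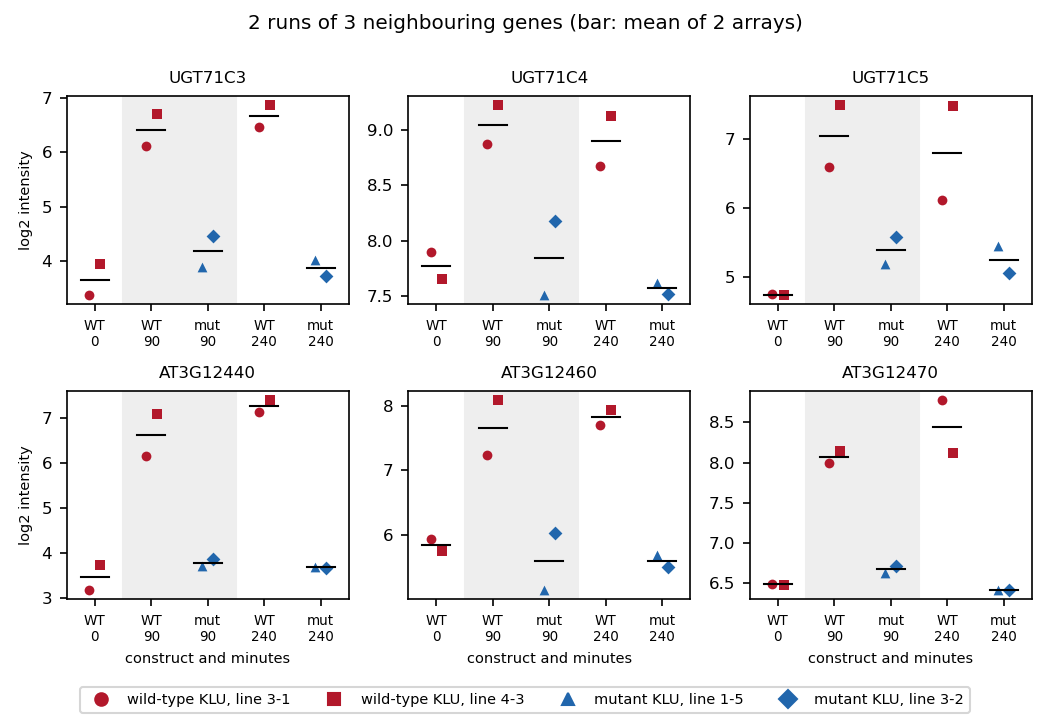
Log2 intensity on each of the 10 arrays for 2 runs of 3 adjacent genes, by construct (WT, wild-type KLU in red; mut, mutant KLU in blue) and minutes of vapour; symbols mark lines, bars the mean of 2 arrays, and the 90 min arrays are shaded. In all 6 genes both wild-type arrays lie above both mutant arrays at 90 and at 240 min, while the uninduced arrays lie below the wild-type arrays of both times.

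Cell wall genes differed in both directions. Among 18 expansins, proteins that loosen cell walls during growth, 11 were higher and 7 lower, with a median of 0.12. EXPA20 stood at 8.77 and 9.04 with wild-type KLU, against 5.78 and 7.45 with mutant KLU (2.29, SE 0.599, adjusted p = 0.313), and was the only expansin in the 2-fold set. The 9 xyloglucan enzymes had a median of -0.01. The 3 pectin enzymes were all higher, led by PME61 with 8.13 and 8.41 under wild-type KLU against 6.59 and 7.28 under mutant KLU (1.33, adjusted p = 0.193). Of 15 genes of glycosyl hydrolase family 9, listed after values were seen, 12 were higher, with a median of 0.14. No member of these lists passed the threshold with or without the block.

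Regulators of organ size were mostly lower by small amounts. Of 8 measured, 7 were lower and 5 of those had arrays that did not overlap, with a median of -0.29, beside 14.3% of all probe sets that were lower without overlap. The NGATHA genes, which restrict the growth of lateral organs, differed by -0.49 (NGA1), -0.33 (NGA2), -0.57 (NGA3) and -0.31 (NGA4). NGA1 stood at 5.83 and 5.47 with wild-type KLU, against 6.26 and 6.03 with mutant KLU (adjusted p = 0.786). JAG, which promotes the growth of petals and leaves, differed by -0.26, TCP15, which restrains growth, by -0.14, ARL, which promotes cell expansion, by -0.04, and NUB, a relative of JAG, by 0.09. None of the 8 passed.

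Among the hormone lists, the 15 auxin genes had a median of -0.07, with differences from -0.17 to 0.14, and 12 of them were lower. The 6 cytokinin genes had a median of 0.08 and the 4 gibberellin genes, all lower, one of -0.17. The gibberellin receptor genes GID1A, GID1B and GID1C were lower without overlap, by -0.39, -0.09 and -0.25, beside 14.3% of all probe sets. The jasmonate list held 2 measured genes. BSMT1, a methyltransferase of benzoic and salicylic acid, stood at 8.18 and 8.16 with wild-type KLU, against 8.80 and 8.59 with mutant KLU (-0.53, adjusted p = 0.683), and JMT, which methylates jasmonic acid, differed by 0.13. The brassinosteroid receptor gene BRL1 differed by 0.34, with groups that overlapped. The 22 cytochrome P450 genes had a median of -0.01, with 11 higher and 11 lower, and CYP78A9 was their only member in the 2-fold set. All 7 nuclear photosystem genes had a lower mean with wild-type KLU, with a median of -0.18, and so had 54 of 69 plastid-encoded genes, also with a median of -0.18. The mean level of the plastid-encoded genes overlapped between the groups, at 8.85 and 9.17 with wild-type KLU, against 9.31 and 9.06 with mutant KLU. That of the photosystem genes was 11.09 and 11.31 with wild-type KLU, against 11.39 and 11.36 with mutant KLU. None of the members of these lists passed with or without the block.

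**Figure D5:**
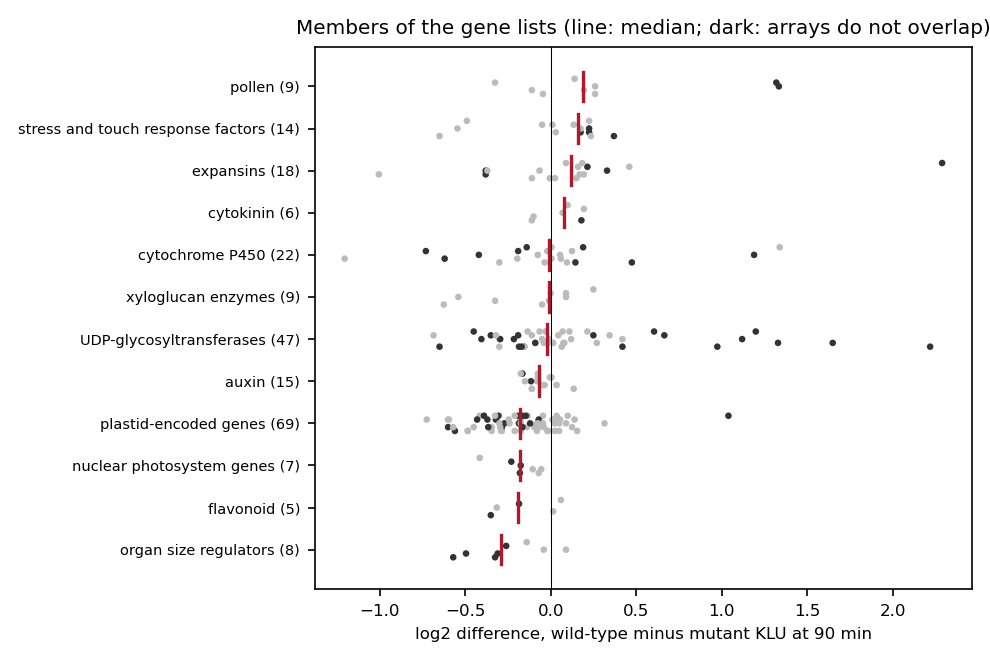
Each point is a measured member of a gene list, for lists with at least 5 measured members and without the families listed after values were seen other than the plastid-encoded genes, placed by its log2 difference, wild-type minus mutant KLU at 90 min; dark points have arrays that do not overlap, the red line is the median, and the number of members is in brackets. Medians of the lists drawn lie between -0.29 for organ size regulators and 0.19 for pollen genes, with single members such as UGT71C3 (2.22) and EXPA20 (2.29) far from their list.

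Both groups stood in ethanol vapour. Of 3 genes of ethanol handling and fermentation measured, ACS and ALDH2C4 overlapped between the groups and differed by -0.12 and -0.20. PDC2, a pyruvate decarboxylase of fermentation, stood at 9.37 and 8.88 with wild-type KLU, against 7.20 and 8.36 with mutant KLU (1.34, SE 0.377, adjusted p = 0.380). All 4 of these arrays were above the uninduced arrays of PDC2, at 6.65 and 6.21. At 240 min PDC2 stood at 8.77 and 9.21 with wild-type KLU and at 8.76 and 8.65 with mutant KLU, a difference of 0.29. Whether the vapour reached the lines of both constructs alike at 90 min was not tested.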

How the data were processed

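Total RNA was labelled with biotin and hybridised to ATH1 arrays, per the labels' protocols. The deposited values are log2 intensities. RMA was the authors' method, per the submitters' processing notes. Its version is not given in the sources used here. They were used as deposited. Groups came from the sample titles. Of 22810 probe sets, 64 controls were left out. Of 22746 tested, 13513 name 1 gene, 503 several, and 8730 are not listed in the gene table, which can be old. Of the named, 13436 matched RefSeq (TAIR10.1), used for names and neighbours.

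limma 3.58.1 in R 4.3.3 fitted 1 mean per group over all 10 arrays, two-sided, with Benjamini-Hochberg adjustment over all probe sets and a threshold of 0.05. Each SE is from this fit. The 2-fold set, the lists and the other descriptive counts carry no test. Named genes are those passing with or without the line block, the 14 smallest p per direction without overlap, up to 4 members per list and runs of 3 neighbours. Symbol-named genes, the largest differences, neighbour pairs, genes with small differences at 240 min, CSLA01 and 9 later lists were chosen after values were seen. The comparison and all lists were chosen with earlier results of these data known.

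Replicate labels name lines that recur across times. Line differences correlated across probe sets, at 0.606, 0.633 and 0.475 between the times of wild-type KLU and 0.348 for mutant KLU, so the arrays are paired by line, and the block had a correlation of 0.271. No batch or scan date is given. p-values measure the spread between lines and pools only. The main fit and the block fit draw part of that spread from repeated arrays of the same lines. The fit was tested on simulated data. Alternatives were other sets of arrays, variances, normalizations, filters and a pollen marker covariate.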

Additional observations from a re-analysis of the deposited data

Results flagged for a closer look

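In 4 of the 227 probe sets examined by name (1.76%) both arrays of wild-type KLU lay on one side of both arrays of mutant KLU at 90 min and on the opposite side at 240 min. Over all probe sets this held for 503 (2.21%), so the share among the named ones is no larger than the background. SAMTL, an S-adenosylmethionine transporter-like gene, differed by -0.54 log2 units at 90 min and 0.06 at 240 min (unadjusted p of the difference between times 0.0146). EXPA24, an expansin, differed by 0.33 and -0.23 (0.0161), GH9B13, a glycosyl hydrolase, by 0.17 and -0.39 (0.0288), and YUC2, an auxin synthesis gene, by -0.12 and 0.06 (0.284), in the same order. All 4 had an adjusted p of 1 for the difference between times in limma.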

How the results depend on the processing

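The number of probe sets passing was 1, and it moved with most settings. With the line as a random replicate block it was 13, with trended and robust variances 13, and with median centring 4. It was 0 with the 4 arrays alone, above the median level, after quantile normalization and with the probe sets of a gene averaged. At an adjusted p under 0.10 it was 104. With the pollen score as a covariate it was 152 (108 higher, 44 lower), and 113 with a score without TUA1 and AGL30, chosen after seeing the data. Leaving out 1 array gave 0 to 48. It was 48 when mutant line 3-2 at 90 min was left out and 4 for wild-type line 3-1 at 90 min. It was 0 for mutant line 1-5 at 90 min, for each wild-type line at 240 min and for each uninduced array. The cause was not tested. The count for the difference between times was 0, and 0 to 2 with 1 array left out, the 2 arising when mutant line 1-5 at 240 min was left out.

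The 2-fold set of 356 held 996 at 1.5-fold, 151 at 3-fold and 216 above the median level, where fewer probe sets were counted. Leaving out 1 of the 4 arrays gave 404 to 1080. The reduced group then has 1 array, which sets both its mean and the overlap. Of 1424 values of named genes, 1334 kept their direction and side of the threshold, 72 passed only in the alternative and 9 no longer passed. The other 9 reversed or came to 0.0. With 1 array left out, such values came from ALDH2C4 (-0.39 to 0.0), NUB (-0.07 to 0.25, also -0.03), TCP15 (-0.72 to 0.44, also 0.26) and ARL (-0.33 to 0.25). With the pollen covariate TCP15 reversed to 0.19 and ARL to 0.17, and ARL was 0.0 with median centring. Of 111 values of 16 list medians, 23 moved, in 10 lists, and 6 took the other sign. These were the flavonoid median (-0.19), at 0.10 when wild-type line 3-1 was left out and 0.03 when mutant line 1-5 was, the xyloglucan one (-0.01), at 0.16 without mutant line 1-5, and, above the median level, UDP-glycosyltransferases (0.31), expansins (-0.37) and stress factors (-0.26). The pollen median of 0.19 was 1.00 without wild-type line 4-3. In 198 of the 356 the lower group averaged below the median of all probe sets. That median splits all probe sets evenly, so the count is a description only.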

Other observations

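In 21 of the 356 probe sets of the 2-fold set the uninduced arrays were nearer to wild-type than to mutant KLU, and the named ones were chosen after their values were seen. ASPGB1, an asparaginase gene, stood at 8.32 and 8.44 with wild-type KLU, against 7.15 and 7.43 with mutant KLU, and at 8.86 and 7.94 uninduced. BCAT4, an aminotransferase of methionine chain elongation in glucosinolate synthesis, stood at 8.67 and 7.33 with wild-type KLU, against 6.72 and 5.78 with mutant KLU, and at 8.58 and 6.78 uninduced. Its difference was 1.75 at 90 min and -0.40 at 240 min (adjusted p = 0.884 and 0.945 in limma). The plastid gene psaJ, a photosystem I subunit, stood at 12.15 and 10.40 with wild-type KLU, against 10.39 and 10.08 with mutant KLU, and was the only plastid gene in the set. One wild-type array was level with the mutant arrays for psaJ, and the uninduced arrays were at 12.23 and 12.34. AT1G23390 stood at 7.86 and 8.21 with wild-type KLU, against 9.76 and 9.01 with mutant KLU, and at 8.10 and 8.34 uninduced, a difference of -1.35 at 90 min and -0.52 at 240 min.

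The list called stress and touch response factors held 14 measured genes, namely WRKY and CML genes and STZ. They had a median difference of 0.16, with 10 higher and 4 lower, and none passed the threshold. The 3 heat shock genes had a median of -0.06 and the 5 flavonoid genes one of -0.19. The 42 AGAMOUS-LIKE genes, listed after values were seen, had a median of 0.0, with AGL86 and AGL30 the members in the 2-fold set.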
